A study of Mus musculus with 8 samples.

Results

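Fibroblasts of the mouse embryo were set against the induced pluripotent stem (iPS) clones that carry the study's main treatment: 2 clones made with Oct4, Klf4 and Sox2 (3 factors, 3F) and treated with IL6 at 10 ng/mL. The comparison uses 4 of the 8 libraries of the series, the 2 3F + IL6 clones and a pair of mouse embryonic fibroblast (MEF) libraries that the labels call biological replicates. All 4 are of the BALB/c background, so strain does not change between the groups. The other 4 libraries are a pair of iPS clones made with 4 factors (4F, also BALB/c) and a pair of D3 GFP embryonic stem (ES) cell libraries (129S2/SvPas); their values are set beside the comparison where they help to read it. Each clone was derived independently, so each 3F + IL6 library stands for 1 line. The labels name no treatment of the MEF, 4F or ES samples and do not say how the factors were delivered, which factors make up the 4, or when IL6 was given. The factors, IL6 and the change of cell type occur together here and cannot be told apart.

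Reprogramming turns a fibroblast, a migratory connective tissue cell that lays down collagen and pulls on it through actin stress fibres, into a stem cell that grows in compact colonies. Oct4 (gene Pou5f1) and Sox2 bind together at the enhancers of a network of pluripotency genes, and Klf4 joins them at many of these sites. An early step described for mouse fibroblasts is the mesenchymal-to-epithelial transition, in which the cell loses the repressors of the SNAIL and ZEB families and gains E-cadherin. IL6 signals through the receptor subunit gp130 (Il6st), JAK kinases and STAT3, the route that LIF uses to keep mouse ES cells undifferentiated.

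Of 23389 gene symbols, 12610 reached an RPKM (reads scaled to gene length and library size) of at least 1 in at least 2 of the 4 libraries and were tested. A gene was called when limma's adjusted p was under 0.05 and the groups did not overlap. By this rule 5885 genes (46.7% of those tested) were higher in the clones, 4036 (32.0%) were lower and 2689 (21.3%) were not called, so that 78.7% were called in either direction. Differences are given as clones minus MEF of log2(RPKM + 1), on which the change of a weakly expressed gene appears smaller than it is, and adjusted p-values are from limma. The median difference over all genes was 0.23, and the groups did not overlap for 90.9% of genes. With so large a share called, a call on its own says little, and the size of a difference is the more useful value. Of the called genes, 3236 were higher and 2213 lower by at least 1 log2 unit, 404 and 329 by at least 3, and 81 and 32 by at least 5. An exact permutation test of 2 against 2 libraries cannot give a p below 0.333, so no single gene was tested that way.

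**Figure D1:**
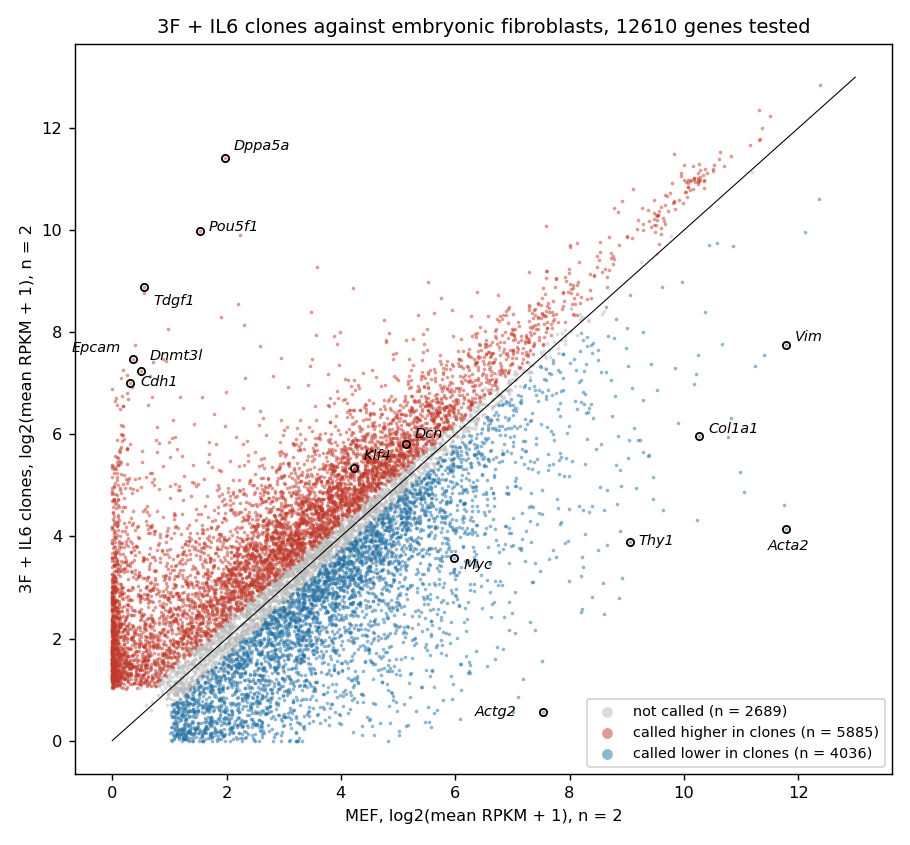
Mean level of each of the 12610 tested genes in the 2 MEF libraries (x axis) and the 2 3F + IL6 clones (y axis), as log2(mean RPKM + 1), with called genes in colour and the diagonal marking equal levels. Pou5f1, Dppa5a, Tdgf1, Epcam, Cdh1 and Dnmt3l lie far above the diagonal at MEF levels near 0, while Acta2 and Actg2 lie far below it.

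The libraries differed mainly by group. The first principal component of the 4 libraries held 96.9% of the variance and separated clones from MEF, and the second (2.56%) separated the clones from each other, at 19.3 and −20.2. Estimated depth was 13300000 and 14000000 reads for the clones and 17400000 and 17800000 for MEF. The clones differed from each other more than the MEF libraries did. Between the clones 180 genes (1.43%) differed by at least 1 log2 unit, against 44 (0.349%) between the MEF libraries, 35 between the 4F clones and 59 between the ES libraries.

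The identity of both groups was checked against marker genes. All 12 markers of pluripotent cells were higher in the clones, with a median difference of 6.82 and a summed level of 5889 and 5389 RPKM against 7.09 and 9.02 in MEF. Of 13 fibroblast markers, 11 were lower in the clones (median of the 13, −3.11), Dcn was higher and Lum was not called. The fibroblast sum was 184 and 281 RPKM in the clones, 173 and 146 in 4F clones, 2766 and 2756 in MEF and 11.5 and 12.1 in ES cells. Transcripts of fibroblast markers were thus higher in the clones than in ES cells by summed level, and their part in the results was not tested. In bulk RNA, fewer cells of a type and less RNA per cell cannot be told apart. Markers of other lineages were low. Endothelial markers summed to 24.8 and 20.9 RPKM in the clones, led by Pecam1 (17.1 and 12.1), which ES cells also hold (average 21), with Cdh5 at 0.0184 and 0.104. Erythroid, keratinocyte, cardiac, chondrocyte, Schwann and adipocyte lists stayed at 24.4 RPKM or less in each of the 4 libraries. Skeletal muscle markers summed to 73 and 48.2 RPKM in the clones and 27.1 and 27.8 in MEF, with Myod1 and Myog at 0.161 and 0.151 and 0.203 and 0.238 in the clones. Of its 2 tested members, the myosin light chain gene Mylpf was higher at 69.5 and 44.7 RPKM against 0.774 and 1.21 (4F average 56.7, ES average 97.8) and the skeletal actin gene Acta1 was lower at 1.99 and 1.37 RPKM against 25.8 and 26. The neural sum was 28.1 and 44 against 13.1 and 13.3, with Sox1 at 0.509 and 1.01 in the clones. The neural sum was mostly the tubulin gene Tubb3, called higher at 21.9 and 34.9 RPKM against 6.46 and 6.87, while the myelin gene Mbp was lower at 1.7 and 1.41 RPKM against 3.51 and 3.24. Trophoblast markers summed to 17.9 and 10.7 against 5.37 and 5.45, and those of primitive and visceral endoderm to 6.1 and 11.2 against 21 and 21.1. The macrophage sum was 56.4 and 54.1 against 8.03 and 8.04, led by Cd68 (34.4 and 20.8 in the clones) and Lyz2 (18.1 and 28.7), while Ptprc, the marker of all white blood cells, was at 0.0131 and 0.0494.

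The reprogramming genes themselves did not all move alike. Pou5f1 (mm10 chromosome 17, 35506018 to 35510772) stood at 1002 and 1014 RPKM in the clones and 1.88 and 1.88 in MEF, a log2 difference of 8.45, SE 0.057, adjusted p = 2.6e-05. Sox2 was at 162 and 182 RPKM in the clones and 1.09 and 0.754 in MEF (6.49). Both were high in each clone and close to 0 in each MEF library. Klf4, the other factor, was already present in MEF, at 18.1 and 17.5 RPKM, and stood at 24.8 and 54.8 in the clones. Its difference of 1.01 (SE 0.38, adjusted p = 0.062) did not pass the threshold. Klf4 was called higher in the fit of all 8 libraries and with the replicate number as a block, so the missing call depends on the fit. Clone 1 was close to the MEF level and clone 2 well above it. These values do not tell transcripts of a delivered factor from those of the endogenous gene. Myc (chromosome 15, 61985391 to 61990374), which is not one of the 3 factors, was at 62.4 and 62.4 RPKM in MEF and at 5.09 and 16.8 in the clones, a difference of −2.60, SE 0.52, adjusted p = 0.0088. Clone 1 was the lowest of the 4, and neither clone reached the MEF level. Myc averaged 53.8 in 4F clones and 20.7 in ES cells. Its relative Mycn went the other way, at 43.1 and 76.9 RPKM in the clones and 0.922 and 1.2 in MEF (4.83). Across the MYC network of 12 partners and antagonists, 7 were higher and 2 lower, next to 46.7% and 32.0% of all genes. Mxi1, a Myc antagonist, was higher at 10.1 and 9.28 RPKM against 1.68 and 1.64, and Mxd4, another, was lower at 4.11 and 5.56 RPKM against 12.7 and 12.2.

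All 34 tested members of the pluripotency network were higher in the clones (46.7% of all genes were). Their median difference was 5.11, and the smallest was 1.04. Zscan4c, the other member listed, was not tested. The MEF libraries held 3 and 5 of the listed genes at 0, so some could be tested only through the clones. The 3 with the widest gaps were Dppa5a, an RNA-binding protein of the early embryo, at 3024 and 2476 RPKM in the clones and 2.2 and 3.62 in MEF (9.48), Tdgf1, the Nodal co-receptor Cripto, at 549 and 393 RPKM in the clones and 0.349 and 0.597 in MEF (8.31), and Utf1, a chromatin-associated factor, at 441 and 427 RPKM in the clones and 0.393 and 0.529 in MEF (8.22). Dppa5a and the ribosomal protein retrogene Rpl10l (135 and 151 RPKM against 0.168 and 0.219) have near-identical copies in the genome, so their values carry that uncertainty. Nanog, the homeobox factor that stabilises self-renewal, was at 131 and 151 RPKM in the clones and 0.462 and 0.694 in MEF (6.49). Its level averaged 175 in 4F clones and 248 in ES cells. Esrrb, an orphan nuclear receptor of the naive state, was at 58.2 and 68.6 RPKM against 0.0899 and 0.126, and Zfp42 (Rex1) at 169 and 262 RPKM against 0.343 and 0.305. Both averaged more in ES cells, at 141 and 460.1.

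Genes of the primed state, the later stage that follows implantation, were also mostly higher. Of 13 tested, 11 were higher and none lower, next to 46.7% and 32.0% of all genes, with a median of 3.14. The list summed to 11.4 and 11.9 RPKM in MEF, so some members could be tested only through the clones. Otx2, a homeobox factor of the epiblast, was at 49.3 and 43.9 RPKM in the clones and 0.0652 and 0 in MEF, and the POU factor Pou3f1 at 30.3 and 39.2 RPKM against 0.0922 and 0.018. Both clones exceeded the ES average, which was 3.16 for Otx2 and 3.06 for Pou3f1. The ES libraries differ in strain as well, and that difference was not tested. The whole list summed to 405 and 497 RPKM in the clones, 274 and 266 in 4F clones and 89.3 and 87.4 in ES cells. None of its tested members was called between 3F + IL6 and 4F clones, where only 0.0476% of all genes were called. The list is therefore not shown to be equal in both kinds of clone. Fgf5, a growth factor of the same stage, was not called: clone 1 was below MEF and clone 2 above it, at 1.59 and 5.45 RPKM in the clones and 2.51 and 3.15 in MEF.

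Epithelial genes were higher as a group. Of 33 tested genes 32 were higher, none was lower, and the median was 3.95, next to 46.7% of all genes called higher. The list summed to 53.2 and 53.8 RPKM in MEF, and some members could be tested only through the clones. Cdh1 (chromosome 8, 106603351 to 106670246), which encodes E-cadherin, was at 131 and 125 RPKM in the clones and 0.288 and 0.184 in MEF (6.71, SE 0.092, adjusted p = 4.1e-05). Epcam (chromosome 17, 87635979 to 87651129), an adhesion molecule of epithelia and ES cells, was at 192 and 161 RPKM in the clones and 0.19 and 0.372 in MEF (7.11, SE 0.13, adjusted p = 4.1e-05). The tight junction gene Cldn6 was at 106 and 94.7 RPKM against 0.0375 and 0.0367, and Spint2, an inhibitor of surface proteases, at 111 and 113 RPKM against 2.86 and 3.1. Each of these 4 genes was within a narrow band in the clones, and all but Spint2 were close to 0 in MEF. Esrp1, a splicing regulator that sets the epithelial exon pattern, followed them at 22.1 and 19.9 RPKM against 0 and 0.028 (4.44). The muscleblind splicing regulators Mbnl1 (1.14 and 1.64 RPKM against 58.9 and 60.5, −4.67) and Mbnl2 (12.6 and 11.8 RPKM against 62.5 and 63.3, −2.28) were lower. The only tested member of the epithelial list not called was the keratin gene Krt19, which MEF already held at 24.7 and 26.5 RPKM.

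The transcription factors that hold the mesenchymal state were lower in parallel. Of 39 factors listed, 28 were tested. Of these, 27 were lower (32.0% of all genes were) and 1 was higher, with a median of −2.63. The list summed to 63 and 77 RPKM in the clones against 625 and 633 in MEF, so some members could be tested only through MEF. The count of lower factors therefore carries little weight. With no filter the median was −1.66. Snai2 (Slug) was at 0.822 and 2.33 RPKM in the clones and 26.6 and 28.8 in MEF (−3.54). Zeb2 was at 0.544 and 0.73 RPKM in the clones and 13.4 and 13.1 in MEF (−3.12). Snai1 kept a higher level than either, at 6 and 8.21 RPKM against 52.3 and 55.7 (−2.78), as did Zeb1, at 2.38 and 3.76 RPKM against 13.1 and 12.5 (−1.79). Snai1, Snai2, Zeb1 and Zeb2 bind the E-box CACCTG and repress Cdh1 and other epithelial genes; like other genes here whose values are given for their role, they were chosen after their values were seen. The limb and body wall factors Prrx2 (5.04 and 4.99 RPKM against 72.9 and 69.3), Osr1 (0.187 and 0.249 RPKM against 19.9 and 19.5) and Tbx15 (0.845 and 1.15 RPKM against 27.3 and 27.5) fell with them. Of 30 Hox genes tested, 29 were lower, and their summed level was 9.39 and 14.2 RPKM in the clones against 157 and 161 in MEF. Hoxc10, a factor of the hindlimb level of the body axis, was at 0.195 and 0.403 RPKM against 10.5 and 10.3. With so low a sum in the clones, most Hox genes could be tested only through their MEF level. The count of lower Hox genes therefore carries little weight.

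The promoter of Epcam is shown because it carries the E-box of the SNAIL and ZEB factors in both orientations. The 250 bases before its start on the + strand (RefSeq, GRCm38.p6, chr17:87635729-87635978) hold CACCTG 187 bases before the start and its reverse complement CAGGTG 19 bases before it, both in capitals.
Epcam: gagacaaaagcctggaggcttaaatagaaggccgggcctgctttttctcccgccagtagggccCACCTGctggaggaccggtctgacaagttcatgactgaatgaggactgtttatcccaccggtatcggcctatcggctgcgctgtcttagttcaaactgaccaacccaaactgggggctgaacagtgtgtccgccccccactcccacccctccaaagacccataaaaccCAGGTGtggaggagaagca
In all, 5 motifs were searched on both strands in the 250 bases before the start of 8996 tested genes with a promoter entry: the E-box (CACCTG), the TEAD motif (GGAATG), the AP-1 motif (TGACTCA), the octamer (ATGCAAAT) and the TATA motif (TATAAA). The E-box occurred in 18.3% of all these genes, in 31.8% of the 283 called higher by at least 3 log2 units and in 12.5% of the 224 called lower by as much. The TEAD motif occurred in 13.2% of all, 17.3% of the strongly higher and 22.3% of the strongly lower genes. The AP-1 motif occurred in 4.0%, 5.65% and 8.48%, the octamer in 1.54%, 3.89% and 2.68%, and the TATA motif in 7.83%, 12.01% and 14.7%, in the same order. Both strongly changed sets were poorer in CpG than all promoters, with a median observed to expected ratio of 0.505 for the higher and 0.581 for the lower set against 0.737. A gene counted as holding a motif if any of its listed windows did. Windows per gene averaged 1.28 over all, 1.32 in the strongly higher and 1.4 in the strongly lower set, and their part in the shares was not tested. The shares are a description of letters in short windows, with no test, and say nothing on binding. The 2 windows listed for Pou5f1 held none of the 5 motifs.

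The matrix that fibroblasts secrete was mostly lower. Of 21 collagen genes tested 18 were lower, with a median of −3.27. The counts in this paragraph stand next to 32.0% of all genes called lower and 46.7% called higher. Col1a1 (chromosome 11, 94936224 to 94953042), the main chain of type I collagen, was at 51.4 and 71.6 RPKM in the clones and 1242 and 1232 in MEF (−4.33, SE 0.16, adjusted p = 8.1e-05). Col12a1, a collagen that links fibrils, was at 2.89 and 2.03 RPKM against 113 and 112. Both clones were far below both MEF libraries for each. The exception was Col18a1, a basement membrane collagen, which was higher at 91.3 and 104 RPKM against 13.3 and 14 (2.75). Of 41 other matrix genes 32 were lower and 7 higher. Thbs1 (thrombospondin 1) was at 34.1 and 40.8 RPKM against 2023 and 2013 and Sparc, a collagen-binding protein, at 182 and 192 RPKM against 1219 and 1200.3. Among the higher members was Nid2, a basement membrane protein, at 70.1 and 60.7 RPKM against 16 and 16.1. The count of 7 higher was 4 with quantile normalization and without MEF 2. Among the enzymes that process collagen, 20 of 26 were lower, among them Lox, which cross-links it, at 33 and 28.9 RPKM against 480.4 and 478.

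In the integrin and laminin list, 7 of 25 were higher and 16 lower, next to 46.7% and 32.0% of all genes. The laminin chains Lama3 (9.76 and 9.87 RPKM against 0.0795 and 0.109) and Lama5 (26.9 and 23.7 RPKM against 3.23 and 3.14) and the hemidesmosome integrin Itgb4 (3.04 and 2.71 RPKM against 0.286 and 0.306) were higher. The fibronectin receptor subunits Itga5 (20 and 23.9 RPKM against 301 and 302) and Itgb1 (54.9 and 60.9 RPKM against 605 and 602) and the muscle laminin chain Lama2 (0.12 and 0.0988 RPKM against 6.3 and 6.48) were lower. Of 27 matrix proteases and inhibitors 18 were lower (32.0% of all genes were). The tissue inhibitor Timp3 was at 3.99 and 4.05 RPKM in the clones and 160 and 157 in MEF (−4.99, SE 0.065, adjusted p = 4.1e-05). Mmp3 (stromelysin 1) was called higher, at 45.1 and 76.4 RPKM against 25.7 and 25.4, and stood at 0.162 on average in ES cells.

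No tested gene of the smooth muscle and actin list was called higher. Of 37 tested 35 were lower (32.0% of all genes were), with a median of −2.89. Acta2 (chromosome 19, 34241090 to 34255590), smooth muscle actin and the mark of contractile fibroblasts, was at 13.6 and 19.9 RPKM in the clones and 3562 and 3499 in MEF (−7.66, SE 0.18, adjusted p = 4.7e-05). Actg2, the other smooth muscle actin, was at 0.287 and 0.647 RPKM against 182 and 187, and Tagln (transgelin) at 26.5 and 29.9 RPKM against 2116 and 2131. Without clone 1, 1 member was called higher. Of 19 intermediate filament and lamin genes 11 were higher and 6 lower, next to 46.7% and 32.0% of all genes. Vim (vimentin) was at 213 and 218 RPKM against 3516 and 3556 and the nuclear lamin Lmna at 20.6 and 25.8 RPKM against 334 and 335, while the B-type lamins Lmnb1 (144 and 162 RPKM against 36.3 and 36.1) and Lmnb2 (34.1 and 37 RPKM against 11.9 and 11.2) and the lamin B receptor Lbr (84.8 and 75.4 RPKM against 17.7 and 17.1) were higher. Vimentin remained abundant in clones, at about the ES average of 191. Among 30 caveolar and fibroblast surface genes 22 were lower (32.0% of all genes were). Sdpr (cavin 2) was at 0.507 and 0.431 RPKM against 127 and 130.3, Cav1 (caveolin 1) at 8.49 and 10.7 RPKM against 301 and 298 and the surface glycoprotein Thy1 at 11.4 and 16.5 RPKM against 535 and 524. Icam1, an adhesion receptor for white blood cells, was higher at 52.3 and 34.3 RPKM against 2.37 and 2.04; leaving out either MEF library took the higher calls in this list from 7 to 4.

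Genes and targets of YAP and TAZ, the co-activators that respond to cell tension, and genes of the AP-1 and immediate early list were mostly lower. Of 25 YAP and TAZ genes and targets 20 were lower, with a median of −1.73. The counts in this paragraph stand next to 32.0% of all genes called lower and 46.7% called higher. The secreted targets Ctgf (22 and 15.9 RPKM against 1205 and 1183, −5.92) and Cyr61 (23.5 and 20.4 RPKM against 785 and 797, −5.11) and the nuclear target Ankrd1 (0.592 and 1.03 RPKM against 138 and 135, −6.26) were low in both clones and high in both MEF libraries. Tead2, a DNA-binding partner of YAP, was higher at 84.7 and 80.9 RPKM against 33.5 and 33.8. Of 20 AP-1 and immediate early genes 13 were lower and 2 higher. Fosl1 was at 3.83 and 3.36 RPKM against 52.4 and 51, Jun at 11.4 and 12.4 RPKM against 55.9 and 57.2 and Jund, a Jun family member, was higher at 40.4 and 42.3 RPKM against 24.9 and 23.9. In the BMP and TGF-beta list 28 of 36 were lower. The ligand Tgfb3 was at 1.09 and 1.51 RPKM against 146 and 143, the activin subunit Inhba at 5.83 and 6.09 RPKM against 467 and 459 and the activin antagonist Fst (follistatin) at 1.4 and 2.5 RPKM against 183 and 183. The activin receptor Acvr2b went up, at 10.5 and 10.7 RPKM against 0.331 and 0.582. Ligand and antagonist of the activin pair were therefore both low in the clones and both high in MEF.

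**Figure D2:**
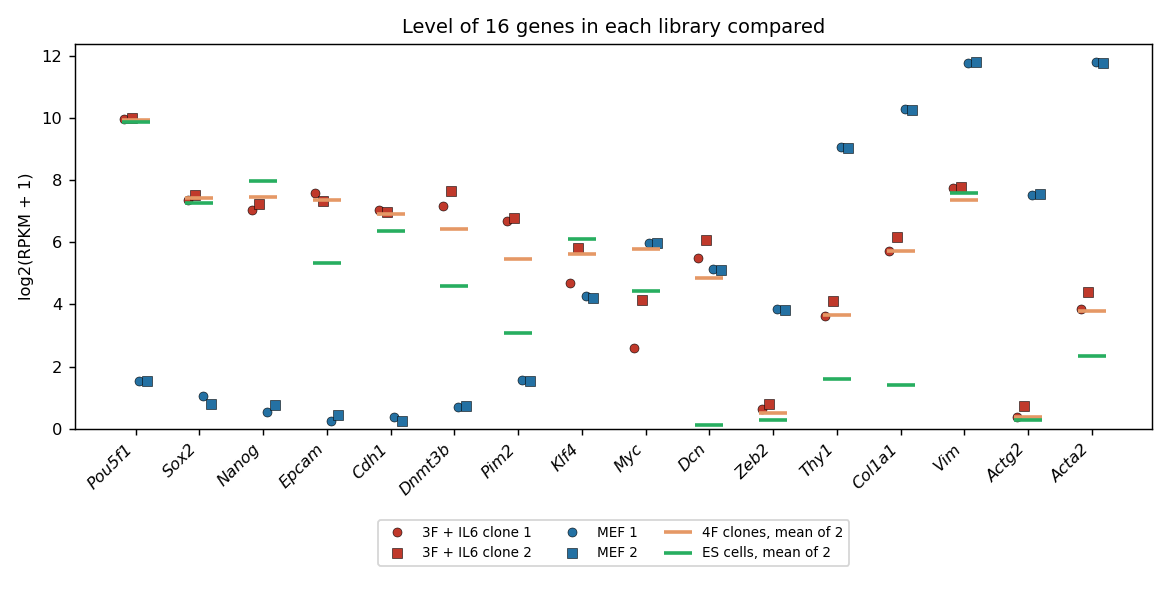
Level of 16 genes, as log2(RPKM + 1) on the y axis, in each 3F + IL6 clone (red) and each MEF library (blue), with the means of the 2 4F clones (orange bar) and 2 ES libraries (green bar). Pluripotency and epithelial genes are high in both clones and near 0 in both MEF libraries, Klf4 of clone 1 lies next to MEF, and Dcn lies above MEF in the clones while ES cells are near 0.

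The IL6 and LIF receptor pathway was split. Of 22 genes 10 were higher and 10 lower (median −0.48, or 0.071 when only genes with a mean of at least 5 were tested), next to 46.7% and 32.0% of all genes called higher and lower. Among the lower members, the shared receptor subunit Il6st was at 11.6 and 13 RPKM in the clones and 27.4 and 27.1 in MEF (−1.08), Jak1 at 15.8 and 15 RPKM against 49.8 and 48.8 and Jak2 at 1.59 and 1.63 RPKM against 13.5 and 13.9. Among the higher members, Socs3, the feedback inhibitor that STAT3 induces, was at 45.8 and 38.6 RPKM in the clones and 6.9 and 6.91 in MEF (2.44), and the survival kinase Pim1 at 59.4 and 54 RPKM against 12.9 and 12.9. Pim2 (chromosome X, 7878262 to 7883432), another kinase of that family, was at 101 and 108 RPKM in the clones and 2 and 1.93 in MEF (5.15, SE 0.081, adjusted p = 4.1e-05). Il6 itself was low and not called, at 1.96 and 3.68 RPKM in the clones and 4.63 and 3.96 in MEF, and so was Lif, at 1.59 and 2.49 RPKM against 3.06 and 3.16. Socs3 averaged 53.7 in 4F clones and 56.6 in ES cells, and Il6st 9.89 and 20.3.

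Whether a change is particular to 3F + IL6 clones needs the test against 4F clones, since both kinds are set against the same MEF libraries. Of the 12610 genes, limma called 6 (0.0476%) between 3F + IL6 and 4F, and 1362 had an unadjusted p under 0.05. Pim2 was the only one of the 6 that encodes a protein, at 101 and 108 RPKM against a 4F average of 43.4, a difference of 1.25 (SE 0.08, adjusted p = 0.031). The others were the RNAs Snord2 (−2.44), Rn45s (−2.35), Rpph1 (−4.30), Mir677 (−1.94) and Snord35b (1.56). Rn45s was at 41.2 and 49.6 RPKM in the clones and 41 and 133 in MEF, so it varied between the MEF libraries as well. In a list of RNAs without a poly-A tail, which holds Rn45s and Rpph1, the summed level was 105 and 101 RPKM in the clones, 775 and 752 in 4F clones, 103 and 343 in MEF and 149 and 842 in ES cells. It thus differed between libraries of 1 group, and its part in these calls was not tested. Without either 4F library 0 genes were called (368 and 412 at an unadjusted p under 0.05), and without clone 1 the count was 889, without clone 2 it was 22. A gene not called here is not shown to be equal in both kinds of clone. Myc, for example, differed by −2.39 (SE 0.49, adjusted p = 0.42).

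Genes that write and remove DNA methylation were mostly higher, while the Mbd genes of the list went both ways. Of 18 DNA methylation genes 13 were higher and 3 lower (5 lower with each of 3 other scalings), next to 46.7% and 32.0% of all genes. The de novo methyltransferase Dnmt3b (chromosome 2, 153649450 to 153687730) stood at 142 and 199 RPKM in the clones and 0.626 and 0.65 in MEF (6.69) and its cofactor Dnmt3l at 184 and 118 RPKM in the clones and 0.464 and 0.363 in MEF (6.72). The related Dnmt3a was at 29.1 and 32.9 RPKM against 2.55 and 2.67. The maintenance pair Dnmt1 (82.9 and 81.2 RPKM against 29.8 and 30.6) and Uhrf1 (183 and 194 RPKM against 29.4 and 28.9) was higher by less. Of the oxidising enzymes, Tet1 was at 30.6 and 29.5 RPKM in the clones and 0.16 and 0.171 in MEF (4.74) and Tet2 at 7.41 and 10.5 RPKM against 0.759 and 0.631, while Tet3 was lower at 1.66 and 2.22 RPKM against 3.39 and 3.23, a call lost without either MEF library. The members of the family thus differed in direction. The cytidine deaminases Apobec1 (5.96 and 5.73 RPKM against 0.567 and 0.506) and Apobec3 (79.6 and 59.9 RPKM against 7.52 and 7.13), the glycosylases Tdg (55.9 and 63.7 RPKM against 28.2 and 28.3) and Mbd4 (7.74 and 6.75 RPKM against 1.37 and 1.67), and Gadd45a (44.6 and 50.8 RPKM against 4.17 and 4.27) were higher. So was Mbd3 (109 and 101 RPKM against 86.3 and 87.5), though its call was lost with each of 3 other scalings and without either MEF library. The binding proteins Mbd1 (2.79 and 4.97 RPKM against 13 and 12.8) and Mbd2 (8.86 and 8.3 RPKM against 39.4 and 38.2) were lower. Uhrf2 (16.4 and 16.8 RPKM against 19.2 and 18.7) was not called.

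Polycomb repressive complex 2 methylates histone H3 at a lysine that marks silent genes. Of its 11 genes 9 were higher and 2 lower, next to 46.7% and 32.0% of all genes. The catalytic subunit Ezh2 was at 91.2 and 76.2 RPKM in the clones and 21.9 and 21.4 in MEF (1.90), and the core subunits Eed (95 and 108 RPKM against 25.4 and 26.5) and Suz12 (72.3 and 68.4 RPKM against 18.8 and 19.2) moved by a like amount. The partner Jarid2 was at 53.7 and 57.1 RPKM in the clones and 2.42 and 2.66 in MEF (3.99) and Mtf2 at 62.6 and 61.6 RPKM against 5.65 and 5.28 (3.29). Rbbp4 (141 and 137 RPKM against 56.5 and 56.9), Rbbp7 (211 and 200.2 RPKM against 146 and 144), Ezh1 (17.7 and 10.8 RPKM against 3.15 and 2.94) and Phf19 (8.76 and 7.15 RPKM against 3.1 and 3.27) were higher too. The partners Phf1 (2.74 and 2.49 RPKM against 5.53 and 5.41) and Aebp2 (16.1 and 16.2 RPKM against 28.6 and 29.5) were lower. In the BAF chromatin remodelling list 14 of 25 were higher and 9 lower (5 lower without MEF 2), next to 46.7% and 32.0% of all genes. Smarcc1 was higher at 64.9 and 71.5 RPKM against 28.2 and 26.9 and its paralog Smarcc2 lower at 6.86 and 8.32 RPKM against 21 and 22. Smarcd1 was higher at 45.5 and 50.7 RPKM against 10.8 and 10.5 and its paralog Smarcd3 lower at 1.6 and 1.75 RPKM against 10 and 9.72.

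Genes that copy and guard DNA were mostly higher, next to 46.7% of all genes called higher. Of 41 replication genes 40 were higher (median 1.64), led by Gmnn (geminin, 138 and 127 RPKM against 16.4 and 16.4) and the helicase subunit Mcm7 (257 and 238 RPKM against 42 and 42.1). Of 35 repair genes 33 were higher (median 1.76). The mismatch repair gene Msh6 was at 165 and 157 RPKM against 10 and 10.1, a difference of 3.88. Of 30 mitosis genes 26 were higher (median 1.26), but Mki67, the usual proliferation marker, was not called, at 23.1 and 17.8 RPKM in the clones and 16.5 and 16 in MEF. Cyclin E1 (Ccne1) was at 173 and 212 RPKM against 30.3 and 29.8. Cyclin D2 (Ccnd2) was at 5.48 and 9.94 RPKM against 105 and 101 and the CDK inhibitor Cdkn1a (p21) at 65.3 and 60.7 RPKM against 208 and 208. Among p53 and its targets 14 of 24 were higher and 7 lower, next to 46.7% and 32.0% of all genes. Of 17 telomere genes 12 were higher and none lower, among them Terf1 (69.9 and 68.8 RPKM against 10.8 and 9).

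**Figure D3:**
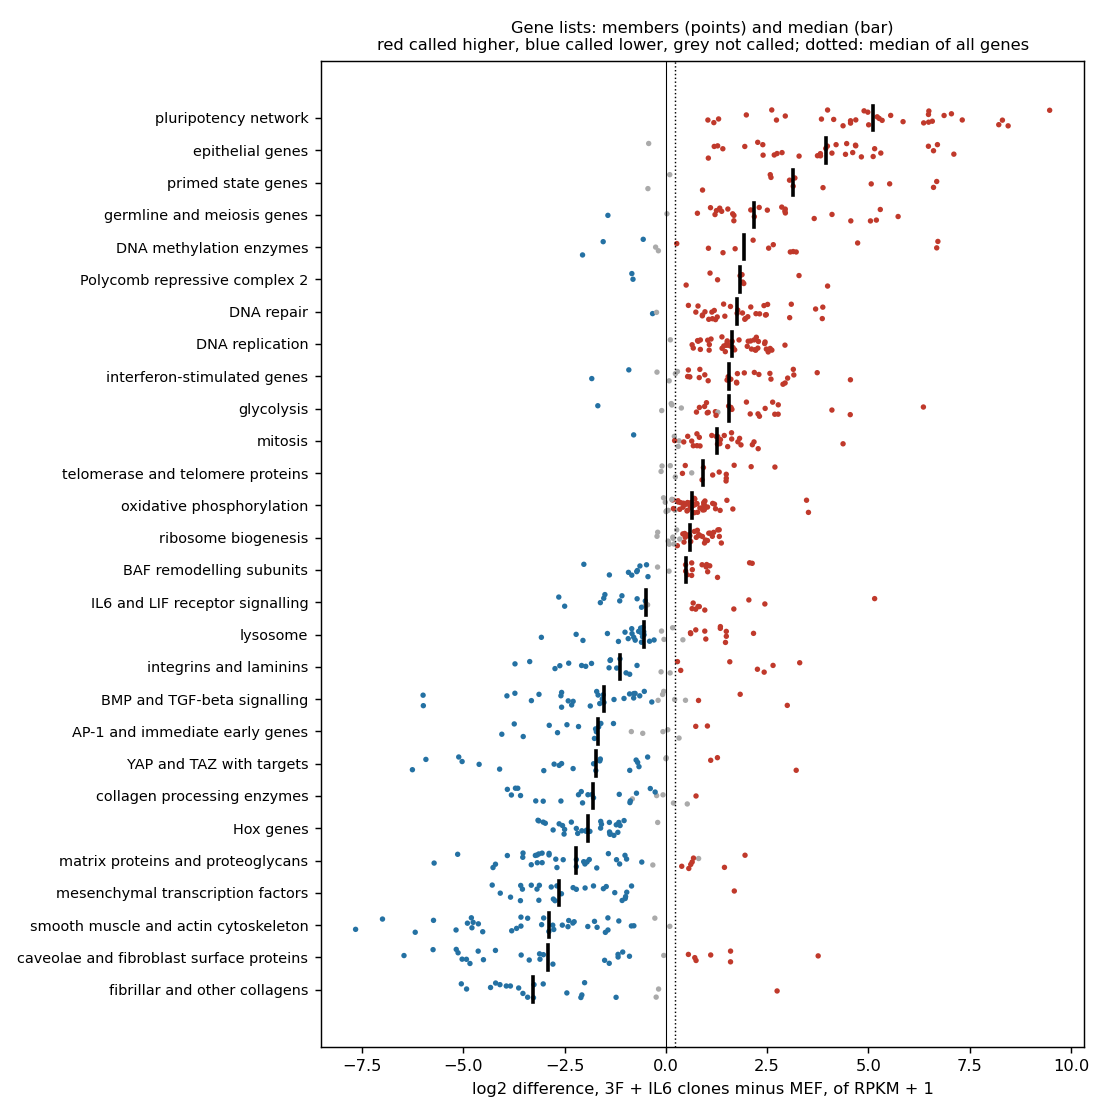
Log2 difference of RPKM + 1, 3F + IL6 clones minus MEF (x axis), of each tested member of 28 gene lists, with the median of a list as a bar and the median of all 12610 genes (0.23) as a dotted line. Lists run from the pluripotency network, at a median of 5.11, down to the collagens, at −3.27, and some lists, such as the DNA methylation enzymes, hold members on both sides.

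Genes of glucose and energy metabolism were mostly higher, next to 46.7% of all genes called higher and 32.0% called lower. Of 29 genes of glycolysis and pyruvate entry 23 were higher and 1 was lower (2 lower with each of 3 other scalings), with a median of 1.55. The glucose transporter Slc2a3 was at 387 and 239 RPKM in the clones and 2.53 and 2.92 in MEF (6.36), and Pdk1, which restrains pyruvate entry into mitochondria, at 38 and 36 RPKM against 0.547 and 0.69 (4.55). The muscle enolase Eno3 was lower at 12.7 and 12.4 RPKM against 41.2 and 43.6. The clones were not alike here: the median over the list was 2.06 in clone 1 and 1.04 in clone 2, and the summed level was 18756 and 12465 RPKM against 6768 and 6751 in MEF. Pgk1, a central glycolytic enzyme, was at 1869.5 and 889.9, Aldoc at 46.5 and 15.9 and Eno2 at 23.5 and 6.94, in each case higher in clone 1. These 3 genes and Slc2a3 were chosen after their values were seen. ES cells held a sum of 7830 and 7941 RPKM and 4F clones 17490 and 16254. Of 57 genes of oxidative phosphorylation 49 were higher and none lower, with a smaller median of 0.64; with library sums made equal, 4 were lower.

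**Figure D4:**
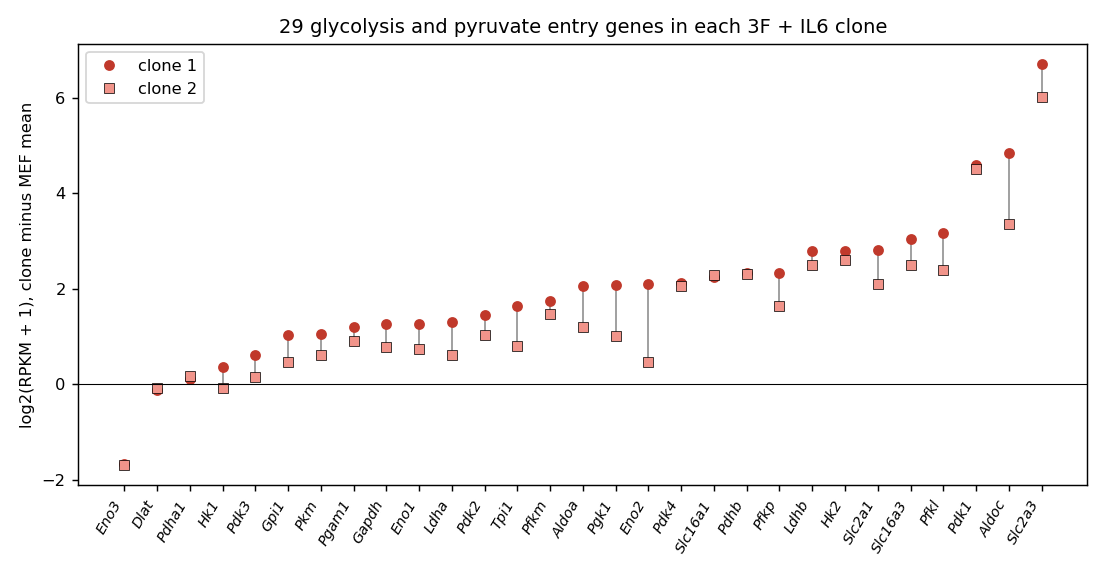
Level of 29 genes of glycolysis and pyruvate entry in each 3F + IL6 clone, as log2(RPKM + 1) minus the MEF mean (y axis), with a line joining the values of clone 1 (circle) and clone 2 (square). Clone 1 lies above clone 2 for most genes, with wide gaps for Eno2, Aldoc, Pgk1 and Aldoa and almost none for Pdk1 and Pdhb.

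Mouse ES cells break down threonine and glycine for one-carbon units. Tdh (threonine dehydrogenase) was at 33.9 and 82.7 RPKM in the clones and 0.0596 and 0.0583 in MEF, and Gldc, the glycine decarboxylase, at 86.7 and 117 RPKM in the clones and 0.177 and 0.23 in MEF (6.40). Amt, of the same cleavage system, was at 53.8 and 45.1 RPKM against 0.942 and 0.502. In the list of 22 enzymes of threonine, glycine, serine and one-carbon metabolism 15 were higher and 4 lower. Of all genes, 46.7% were higher and 32.0% lower. The count of lower enzymes fell without either MEF library. Phgdh, the entry to serine synthesis, was one of the 4 by a small difference, at 125 and 122 RPKM against 146 and 150.2, and its call was lost in the same way. Mat2a, which makes the methyl donor, was not called: it was at 24.9 and 76.7 RPKM in the clones and 113 and 111 in MEF, with clone 1 well below clone 2. Of 36 ribosome biogenesis genes 27 were higher (median 0.60) and none was lower, next to the same shares of all genes. Without clone 2 some were called lower.

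Germline genes, which are silenced by methylation in most body cells, were mostly higher in the clones. Of 27 tested 25 were higher, with a median of 2.19, and 9 more of the list were not tested. The list summed to 16.5 and 15.6 RPKM in MEF, so many members could be tested only through the clones. The count of higher members therefore carries little weight. Tdrd12, a piRNA pathway protein, was at 44.5 and 37.6 RPKM in the clones and 0.0695 and 0.068 in MEF. The meiotic chromosome proteins Sycp3 (31.4 and 27.3 RPKM against 0.207 and 0.354) and Hormad1 (42.1 and 31.4 RPKM against 0 and 0.0365) were higher as well. Imprinted genes went both ways, 12 of 27 higher and 14 lower, next to 46.7% and 32.0% of all genes. Igf2, a growth factor, was at 9.86 and 11.1 RPKM against 147 and 148 and its neighbour H19 at 39.4 and 38 RPKM against 196 and 195, both lower. Phlda2, a placental growth regulator, was at 80.1 and 62.8 RPKM against 0 and 0.233. Snrpn was higher at 40.6 and 41.9 RPKM against 3.95 and 3.97; it shares its locus with Snurf, whose reads cannot be told apart from it. Lin28a, which blocks let-7 microRNAs, was at 84.6 and 101 RPKM in the clones and 0.143 and 0.125 in MEF (6.37). In the list of LIN28 genes and let-7 targets 9 of 16 were higher (median 0.80), next to 46.7% of all genes. The 1 lower member was Hmga2, an architectural chromatin protein, at 8.64 and 18 RPKM in the clones and 405 and 401 in MEF (−4.90).

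Signals and immune genes gave mixed pictures. Among secreted cytokines and chemokines 25 of 38 were lower and 6 higher. The eosinophil chemokine Ccl11 was at 17.7 and 42.3 RPKM in the clones and 0.213 and 0.261 in MEF (4.52) and Ccl8 at 20.1 and 33.4 RPKM against 1.89 and 1.27; both ES libraries listed both at 0. Of 32 interferon-stimulated genes 25 were higher (median 1.57). Irf1, an interferon regulatory factor, was at 49.4 and 49 RPKM against 4.68 and 4.55, the antiviral tether Bst2 at 233 and 275 RPKM against 27.8 and 27.5 and the immunoproteasome subunit Psmb9 at 17.6 and 15.6 RPKM against 0.217 and 0.424. ES cells averaged 13.3, 24.8 and 0.923 for these genes. B2m, the light chain of class I MHC, was not called, at 198 and 292 RPKM in the clones and 281 and 278 in MEF. In the FGF list the ligand Fgf4 was higher at 96.3 and 92.1 RPKM against 0.0366 and 0.0896 and Fgf2 lower at 0.225 and 0.211 RPKM against 23.9 and 20.9, with 9 of 24 higher and 12 lower. In the Wnt list 13 of 32 were higher and 14 lower. These counts, and those of the cytokine and interferon lists, stand next to 46.7% of all genes called higher and 32.0% called lower. Tcf7, a nuclear effector, was at 40.3 and 30.8 RPKM against 1.42 and 1.37 and the ligand Wnt4 at 0.51 and 0.346 RPKM against 5.64 and 5.13. Ptgs2 (COX-2), the inducible prostaglandin enzyme, was at 12.5 and 12.2 RPKM in the clones and 364 and 359 in MEF (−4.76).

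A stricter view asks which genes were on in one group and off in the other, with at least 5 RPKM in both libraries against less than 0.1 in both. In the clones 158 genes were on that were off in MEF, and 36 of them were listed at 0 in both MEF libraries. Trh (thyrotropin-releasing hormone, 39 and 169 RPKM in the clones), Cldn6 and Fgf4 were among the 158 but not among those 36. In MEF only 14 genes were on that were off in the clones, or 10 with small RNAs and genes without a name set aside. These included C1qtnf3, a secreted collagen-like protein, at 31.4 and 31 RPKM in MEF, S100a7a at 29.5 and 25.4, the homeobox gene Dlx2 at 7.3 and 8.04 and the vasoconstrictor Edn1 at 5.99 and 6.21. The full count for 4F clones was 19, and for ES cells it was 117, or 16 and 108 with the same kinds of gene set aside. Those 117 genes had a median of 0.488 RPKM in clone 1 and 0.789 in clone 2; 16 and 10 of them were under 0.1, and 40 and 50 were at 1 or more. In the other direction, ES cells had 161 genes on that were off in MEF, 91 of which were among the 158. The counts of the clones and ES cells were thus close for genes gained and far apart for genes lost; no test was made of them, and the ES libraries also differ in strain.

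Fibroblast markers were also set against their MEF level gene by gene. Relative to the MEF mean, the 13 fibroblast markers had a median level of 7.21% in clone 1, 12.5% in clone 2, 9.66% and 8.35% in the 4F clones, and 0.295% and 0.134% in ES cells. Thy1 was at 2.15% and 3.11% of MEF and Col1a1 at 4.16% and 5.8%. Dcn (decorin), a small collagen-binding proteoglycan, was at 44.1 and 66.6 RPKM in the clones and 34.7 and 33.7 in MEF (0.65, SE 0.20, adjusted p = 0.037), above MEF in both clones. That call was lost with no filter, with quantile normalization, with library sums made equal and without either MEF library (adjusted p = 0.066 to 0.13). Lum (lumican), a related proteoglycan, was at 5.26 and 10 RPKM in the clones and 3.91 and 3.59 in MEF and was not called (adjusted p = 0.055). In ES cells both were near 0, averaging 0.0858 and 0.0152 RPKM. The fibroblast markers were thus not at 1 common share of the MEF level in the clones.

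**Figure D5:**
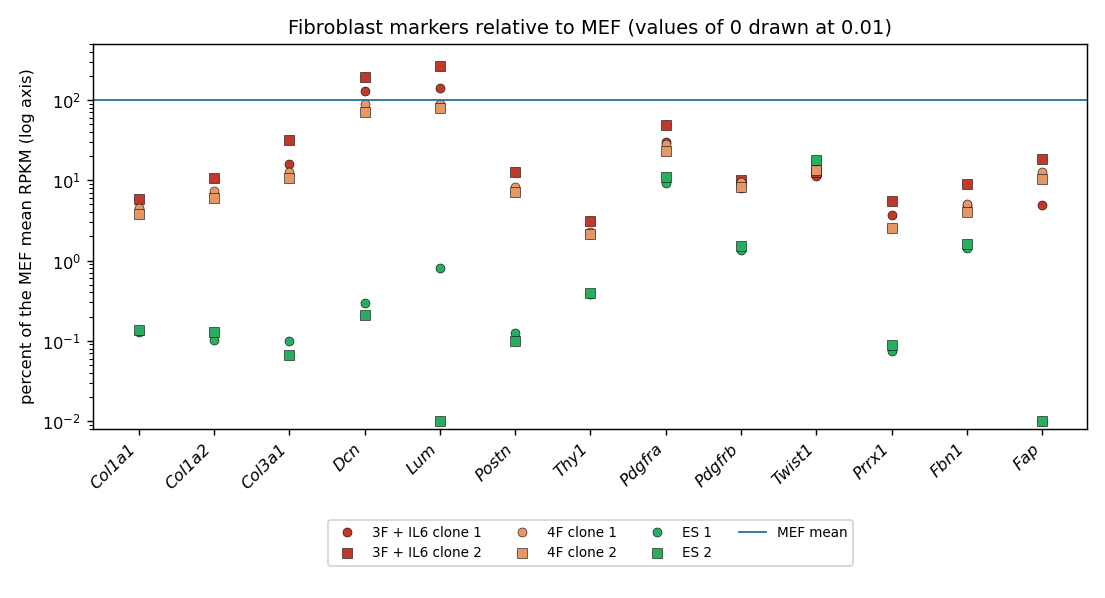
Level of 13 fibroblast markers as a percentage of the MEF mean RPKM (log axis) in each 3F + IL6 clone, 4F clone and ES library, with the MEF mean as a line at 100% and values of 0 drawn at 0.01. Most markers sit between 2% and 50% in all 4 iPS clones and far lower in ES cells, while Dcn and Lum lie above 100% in both 3F + IL6 clones.

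The clones differed from each other in a limited set of genes. Of the 180 that differed by at least 1 log2 unit, 105 were higher in clone 2 and 75 in clone 1. The rule for naming such genes gave 6, and 3 of them were called against MEF in spite of the gap. Ndufa4l2, a mitochondrial protein of low oxygen, was at 89.8 and 20.2 RPKM in the clones and 0.358 and 0.117 in MEF, Ripply1, a somite factor, at 22.3 and 4.01 RPKM against 0 and 0.17 and Trh at 39 and 169 RPKM against 0.041 and 0.0401. The chemokine Ccl2 was at 18.9 and 89.3 RPKM in the clones and 74.4 and 72.1 in MEF, so clone 2 was above MEF and clone 1 below. H2-Q6, a class I MHC gene with close relatives, and the pseudogene Atp6v0c-ps2 were listed at 0 in clone 1 and at 6.32 and 15.6 RPKM in clone 2; reads of such copies may be split between them. In the FGF list the median was −1.14 in clone 1 and −0.31 in clone 2. Spry4, a feedback inhibitor of that pathway, was at 6.79 and 23.1 RPKM in the clones and 22.7 and 23.4 in MEF, low in clone 1 and at the MEF level in clone 2.

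By chromosome, 428 genes of the X were tested, with 55.8% called higher and 25.5% lower and a median of 0.56, next to 46.7% and 32.0% of all genes. Chromosome 17 had 52.9% higher and 23.7% lower, and chromosome 1 had 40.2% and 41.5%. No test was made of these shares, and neighbouring genes are not independent.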

How the data were processed

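RNA was measured by poly-A RNA-seq, from 500 ng of total RNA with the TruSeq mRNA kit, per the labels' protocols. The submitters' processing notes name mm10 for the alignment of the 50 bp reads. Which aligner and counting tool served is not given in the sources used here, and the kit does not mark strand. The authors deposited 1 value per symbol, scaled by gene length and library size (RPKM); no header names the unit, which was read from the steps of low values. These steps also gave the estimated depth (58.4% and 57% of low values in the clones, and 58.9% and 58% in MEF, were whole within 0.1 read), so counts were not recovered. limma 3.58.1 (R 4.3.3) fitted log2(RPKM + 1) of the 4 libraries with trended empirical Bayes and no block, adjusted by Benjamini-Hochberg over 12610 genes. The median SE was 0.11 with 4.46 degrees of freedom. The fit was also run on simulated data. There, far fewer genes changed than here and both groups had the same spread, so that run does not bear on the counts reported. The labels call the MEF libraries biological replicates and the clones independently derived. Genes were named by rule: the 12 largest differences in each direction with a mean of at least 5, all reprogramming factors, DNA methylation and PRC2 genes, up to 4 called members per list and direction and up to 3 not called, 8 on-off genes in each direction, genes differing by at least 2 log2 units between clones, and cell type markers; others named were chosen after their values were seen, and some genes that the rule names are not reported here. The comparison, its 46 gene lists and 14 marker lists were chosen with earlier results of these data known. Of the listed symbols, 6 were matched by RefSeq synonym. Replicate numbers do not pair the samples. Coordinates are mm10 from GENCODE M21, 1-based; promoter sequences are from RefSeq. Promoters of Cdh1, Col1a1 and Thy1 were not used here.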

Additional observations from a re-analysis of the deposited data

Results flagged for a closer look

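The difference from MEF was not the same in 3F + IL6 and 4F clones for 6 genes, by limma's test of 3F + IL6 against 4F. Pim2 was higher in 3F + IL6 clones by 1.25 on the log2 scale (SE 0.08, adjusted p = 0.031), with 101 and 108 RPKM against an average of 43.4 in 4F clones. Snord35b was higher by 1.56. Rn45s (−2.35), Snord2 (−2.44), Rpph1 (−4.30) and Mir677 (−1.94) were lower. In RPKM, Rn45s averaged 234 in 4F clones and read 41.2 and 49.6 in 3F + IL6 clones 1 and 2, with 41 and 133 in the MEF pair. RNAs without a poly-A tail, a list that holds Rn45s and Rpph1, summed to 775 and 752 RPKM in 4F clones and 105 and 101 in 3F + IL6 clones, but also to 103 and 343 in MEF and 149 and 842 in ES cells, and their part in these calls was not tested.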

How the results depend on the processing

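Against MEF, the counts of genes higher and lower stayed within 1.5 times those reported under all 14 alternatives, at 4111 to 7119 higher and 2803 to 4720 lower; leaving out a library gave 4734 to 6486 higher and 3074 to 4720 lower. The replicate number as a block gave 5800 and 3977, and the numbers did not pair the samples (r = 0.0023 over 12610 genes between the deviations of clones and MEF). Other scalings moved the median of all genes from 0.23 to 0.10 (median centring), 0.067 (quantile normalization) and 0.04 (library sums made equal), and the share of calls that were higher from 59.3% to 54.2%, 52.5% and 52.0%; differences are best read against that shift.

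Of the 178 tested genes named, 22 changed their call or direction in some alternative. Calls were lost for Dcn, Mbd3, Tet3 and Phgdh. Direction turned without clone 1 for B2m (−0.50 to 0.061 over the fits that leave out a library), Ccl2 (−1.90 to 0.28) and H2-Q6 (−1.62 to 1.25), without clone 2 for Fgf5 (−0.56 to 0.76) and without MEF 2 for Rpph1 (−2.96 to 1.33); the cause was not tested.

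Between 3F + IL6 and 4F clones, limma called 0 genes with no filter (1839 at an unadjusted p under 0.05), 11 with median centring and 191 in the fit of all 8 libraries, and leaving out a library gave 0 to 889; the cause was not tested. The block gave 5. Groups of 2 libraries and an estimated 11700000 to 17800000 reads limit the precision.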
